A study of Homo sapiens with 9 samples.

Results

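The gene expression profiles of DU145 cells carrying *FZD6* shRNA2 were compared directly with those of DU145 cells carrying *FZD6* shRNA1. All libraries that the deposited labels give to either hairpin were taken, 3 with shRNA2 and 3 with shRNA1, which is 6 of the 9 libraries of the series. The other 3 libraries, from cells expressing a scrambled shRNA, were used as a reference level. DU145 is a line derived from human prostate cancer, and the labels give every library the same line and the genotype WT. The study describes lentiviral vectors of a constitutive and an inducible kind for its hairpins, the scramble included. The only inducible *FZD6* sequence in its oligonucleotide list is that of shRNA2. The sources used here do not say which kind these cells held, or whether it was the same for both hairpins. The labels do not say whether the libraries of a group came from separate cultures, and the p-values then measure only the spread between these libraries, which may be technical.

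A short hairpin RNA is cut by the cell into a small RNA duplex. One strand, the guide, is loaded into an Argonaute protein and directs it to transcripts with a matching sequence, which are then degraded or translated less. Bases near the 5′ end of the guide, called the seed, can also pair with transcripts that match no other part of it. FZD6 is a frizzled receptor for Wnt ligands, best known for signaling that does not go through β-catenin. Both hairpins target the same gene, and the comparison asks which genes and functions set the hairpins apart.

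*FZD6* itself lies on chromosome 8. Its expression, in FPKM, a fragment number scaled to transcript length and library size, was 20.9, 20.5 and 20.04 in the scramble libraries, 9.47, 10.2 and 9.80 with shRNA1, and 7.84, 8.79 and 7.69 with shRNA2. Every hairpin library lay below every scramble library, and every shRNA2 library lay below every shRNA1 library. Differences are given throughout as log2(FPKM + 1) with shRNA2 minus the same with shRNA1. For *FZD6* the difference was −0.25 with a standard error of 0.05 and an adjusted p of 0.0273 by limma. A two-sided exact permutation test of the 6 hairpin libraries gave p = 0.1, the smallest that 3 against 3 can give. The call was lost when single libraries were left out, with an adjusted p of 0.0986 without shRNA1 replicate 2. The main transcript of *FZD6*, NM_003506, was at 7.00 ± 1.07 FPKM with shRNA1 and 4.94 ± 0.384 FPKM with shRNA2 (SD, n = 3) and did not pass the test at the transcript level (adjusted p = 0.420).

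Depth, estimated from the deposited confidence bounds, was 34.2 to 40.2 M fragments with shRNA1, 32.2 to 37.8 M with shRNA2 and 33.5 to 38.5 M with the scramble. The 11 markers listed for epithelial DU145 cells summed to 1824 to 1910 FPKM with shRNA2 and 1923 to 1969 FPKM with shRNA1. Most of this was *VIM*, which is not particular to epithelial cells, averaging 1060 FPKM with shRNA2 and 1089 FPKM with shRNA1. In the same order *KRT8* averaged 207 and 234 FPKM, *KRT18* 271 and 295 FPKM, and *KRT19* 171 and 168 FPKM. The cadherin *CDH1* averaged 3.45 and 3.91 FPKM, and *KRT5* alone of the 11 was below 1 FPKM in every library. *KLK3*, which marks luminal prostate cells, was at or near 0, and *PTPRC*, the defining marker of leukocytes, was listed at 0 in all 9 libraries. The summed level of 10 leukocyte markers was 28.8 to 31.7 FPKM with shRNA2 and 24.8 to 26.6 FPKM with shRNA1. Most of it was *CD68*, a lysosomal protein that many cell types make, which was higher by 0.20 with shRNA2 (adjusted p = 0.0234). All 11 markers of fibroblasts and endothelium stayed below 1 FPKM. The part of other cells in the differences was not tested.

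The seeds of the guides are shown first because they differ between the hairpins, whereas the intended target is shared. With the guide taken to begin at the end of the hairpin stem, a transcript pairs with bases 2 to 8 of the shRNA1 guide where it reads GTATTAT and with those of the shRNA2 guide where it reads AATTATA. Neither word contains the other, and both were searched on the transcript strand of annotated 3′ untranslated regions (UTRs) of GENCODE v29. The 21-base windows below are those of the leading genes that hold the word of the hairpin with which they were lower. Lower is meant against the other hairpin and not against the scramble. *KLHL23* averaged 3.69 FPKM with shRNA1, near the scramble mean of 3.78 FPKM, and 5.29 FPKM with shRNA2. The windows are aligned so that the last base faces base 1 of the guide. Capitals mark the 7 bases that match the seed, and all 6 windows lie in the 3′ UTR in the human build GRCh38.
*CAPN2*, chr1:223775888-223775908, plus strand, exon 21, shRNA2 word: tttatgagcacacAATTATAg
*SUMO3*, chr21:44806642-44806662, minus strand, exon 4, shRNA2 word: tttttaaccccaaAATTATAg
*TTPAL*, chr20:44493579-44493599, plus strand, exon 5, shRNA2 word: tgttagctaaaccAATTATAt
*TNRC6A*, chr16:24825206-24825226, plus strand, exon 24, shRNA1 word: ttgcccacaaatgGTATTATa
*KLHL23*, chr2:169751612-169751632, plus strand, exon 4, shRNA1 word: gaaaaatagtgaaGTATTATa
*ATP11A*, chr13:112886397-112886417, plus strand, exon 29, shRNA1 word: ttatttaatgttaGTATTATt

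In *TTPAL* the pairing ran unbroken over 10 bases from base 2 of the guide, and 14 of 21 bases could pair. In *CAPN2* it ran over 8 bases, with 11 of 21 able to pair, and in *SUMO3* over 7, with 8 of 21. The window of *TNRC6A* could pair at 14 of 21 bases, that of *ATP11A* at 12 and that of *KLHL23* at 9, each with an unbroken run of 7. Thus 3 of the 12 leading genes lower with shRNA2 held the shRNA2 word in the 3′ UTR examined, and 3 of the 12 leading genes higher with shRNA2 held the shRNA1 word. Over all tested genes with an annotated 3′ UTR, 16.5% held the shRNA2 word and 11.96% the shRNA1 word. *TRPC4AP* and *TIMM22*, with the largest differences beside *CAPN2*, held no shRNA2 word there. A match is a description of letters and no evidence of binding.

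Among the 12509 genes that averaged 1 FPKM or more, 839 differed between the hairpins at an adjusted p under 0.05 by limma, or 6.71%. With shRNA2, 240 were higher (1.92%) and 599 were lower (4.79%). Most differences were small, with a median size of 0.19 on the log2 scale for the higher genes and 0.25 for the lower genes. A difference of at least 1.2-fold was reached by 50 of the higher and 269 of the lower genes, and a log2 difference of 0.5 by 2 and 31. All 839 had 3 shRNA2 libraries on one side of the 3 shRNA1 libraries, as had 26.4% of all tested genes. The number of calls rested in part on single libraries. It was 333 without shRNA1 replicate 2, 366 without replicate 3 and 379 without replicate 1, 510 without shRNA2 replicate 1, and 1172 without shRNA2 replicate 2.

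The place of the scramble level was counted from group means, without a margin, and for the called genes only. The same counts were not made over all tested genes, so they do not settle which hairpin a gene departed with. The mean of the scramble libraries lay between the hairpins for 333 of the 599 lower genes, above both for 210 and below both for 56. It was nearer to shRNA1 for 427 of the 599. Of the 240 higher genes, the scramble level lay between the hairpins for 139, below both for 76 and above both for 25, and it was nearer to shRNA1 for 153.

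**Figure D1:**
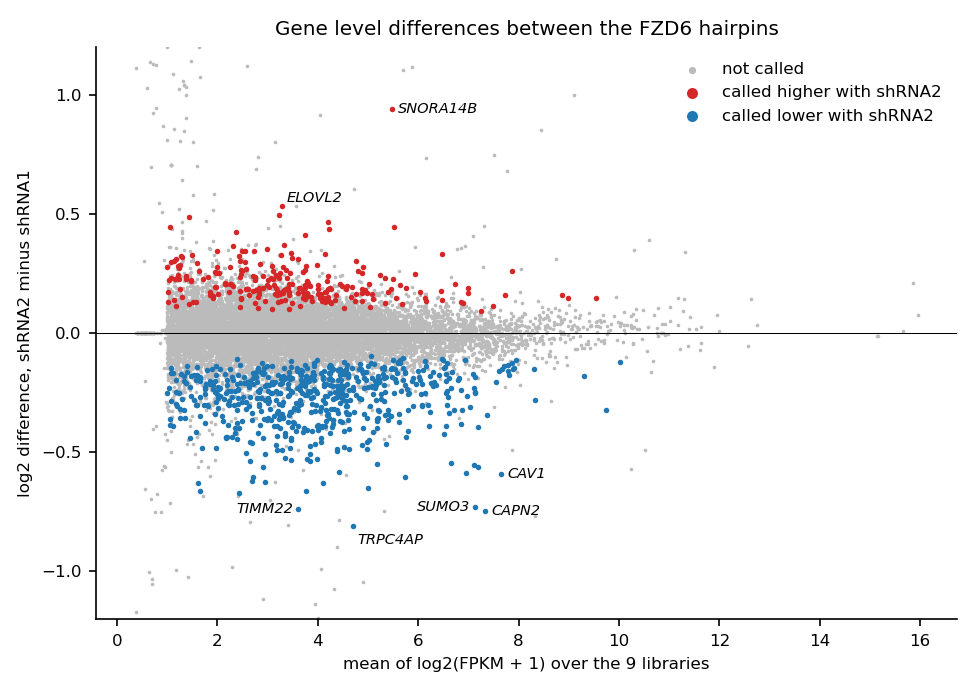
Log2 difference between the hairpins (vertical, shRNA2 minus shRNA1) against the mean of log2(FPKM + 1) over the 9 libraries (horizontal), 1 point a tested gene, with the genes called higher in red and lower in blue. The called genes lie within 0.94 of 0, and 224 uncalled genes beyond 1.2 are off the vertical axis.

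Among the leading lower genes several act in protein turnover or modification. TRPC4AP is a substrate receptor of a cullin ubiquitin ligase. Its gene was at 30.2, 28.8 and 29.01 FPKM with the scramble, 30.6, 30.2 and 31.3 FPKM with shRNA1, and 17.0, 17.1 and 17.3 FPKM with shRNA2, so that only the shRNA2 libraries stood apart from the other 6. The difference was −0.81 ± 0.03 (standard error, adjusted p = 2.69e-05), and the mean FPKM changed by −44.3%. CAPN2, the catalytic subunit of the calcium-dependent protease m-calpain, was at 199, 198 and 199 FPKM with shRNA1 and 118, 120 and 116 FPKM with shRNA2, with the scramble at 177 to 180 FPKM. It differed by −0.75 ± 0.02 (adjusted p = 2.69e-05), and the hairpins lay on opposite sides of the scramble level. SUMO3, a ubiquitin-like protein attached to other proteins, was at 164, 172 and 167 FPKM with shRNA1 and 98.8, 98.1 and 105 FPKM with shRNA2. Its difference of −0.73 ± 0.04 (adjusted p = 0.000227) set shRNA2 below the scramble mean of 158 FPKM.

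Other leading lower genes act in mitochondria, in metabolism and on membranes. TIMM22 forms the channel through which carrier proteins enter the mitochondrial inner membrane. It was at 14.04, 13.5 and 14.4 FPKM with shRNA1 and 8.25, 7.59 and 8.09 FPKM with shRNA2, a difference of −0.74 ± 0.05. AMPD3, an AMP deaminase, was at 3.02, 2.75 and 2.80 FPKM with shRNA1 and 1.37, 1.37 and 1.56 FPKM with shRNA2, the scramble lying between them at 2.08 to 2.41 FPKM. STARD3, a cholesterol-binding protein of late endosomes, was at 18.4, 19.2 and 19.98 FPKM with shRNA1 and 12.4, 11.4 and 12.3 FPKM with shRNA2. Its difference was −0.63 ± 0.05, and scramble and shRNA1 libraries overlapped. APPL2, an adaptor on early endosomes, averaged 6.505 FPKM with shRNA1 and 3.88 FPKM with shRNA2 (−0.62). TTPAL, a relative of the vitamin E transfer protein, was at 7.77, 7.92 and 7.98 FPKM with shRNA1, close to the scramble mean of 7.90, and at 4.70, 5.12 and 4.49 FPKM with shRNA2 (−0.62 ± 0.04). GAS2L3, which links actin to microtubules, differed by −0.67, FAIM, an inhibitor of Fas-induced cell death, by −0.66, and NPDC1, a membrane protein named for neural proliferation, by −0.65. *OR2A9P*, an olfactory receptor pseudogene with close relatives that could share its reads, differed by −0.63 at 1.04 to 3.27 FPKM, and its adjusted p of 0.0428 reached 0.135 under other settings.

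Fewer and smaller differences ran the other way. ELOVL2, an elongase of long polyunsaturated fatty acids, was at 6.92, 6.97 and 6.67 FPKM with shRNA1 and 10.1, 11.8 and 9.43 FPKM with shRNA2. The scramble libraries, at 9.07 to 9.50 FPKM, lay apart from shRNA1 and next to shRNA2. TNRC6A, the GW182 protein that Argonaute recruits to repress its targets, was at 6.93, 6.74 and 6.81 FPKM with shRNA1, 8.41 to 8.79 FPKM with the scramble and 9.94, 10.7 and 9.45 FPKM with shRNA2. The differences were 0.53 ± 0.07 for *ELOVL2* (adjusted p = 0.00485) and 0.49 ± 0.04 for *TNRC6A* (0.00116). FERMT2, the integrin activator kindlin-2, was at 38.4, 37.3 and 37.5 FPKM with shRNA1 and 49.6, 56.0 and 49.7 FPKM with shRNA2 (0.44 ± 0.05). TNC, the matrix protein tenascin-C, was at 14.4, 14.6 and 14.1 FPKM with shRNA1 and 20.3, 20.5 and 18.6 FPKM with shRNA2, while the scramble libraries at 18.9 to 19.4 FPKM fell within the range of shRNA2. In these 4 genes the shRNA1 mean lay farther from the scramble mean than the shRNA2 mean did.

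GPAT3, an acyltransferase of triglyceride synthesis, was at 15.0, 14.5 and 14.8 FPKM with shRNA1 and 19.7, 22.2 and 20.5 FPKM with shRNA2 (0.46 ± 0.05). B3GNT3, which extends sugar chains on mucins, was at 1.28, 1.56 and 1.42 FPKM with shRNA1, as with the scramble at 1.35 to 1.43, and at 2.61, 1.99 and 2.59 FPKM with shRNA2 (0.48 ± 0.08). ATP11A, a phospholipid flippase, was below the scramble with both hairpins, at 5.31, 5.49 and 5.11 FPKM with shRNA1 and 7.19, 7.83 and 6.21 FPKM with shRNA2. KLHL23, a kelch protein, differed by 0.42, the magnesium transporter SLC41A3 by 0.37, and CDKN2D, an inhibitor of the kinases CDK4 and CDK6, by 0.36. *LLPH-DT*, a noncoding transcript, differed by 0.44 and the interferon-induced *IFI6* by 0.41. Both had adjusted p-values close to the threshold, 0.0358 and 0.0499, and lost the call when most single libraries were left out. Only 2 called genes had no entry of 200 bases or more, the small nucleolar RNAs *SNORA14B*, higher by 0.94, and *SNORA105A*, lower by 0.32, and such short entries are poorly caught by a poly(A) library.

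**Figure D2:**
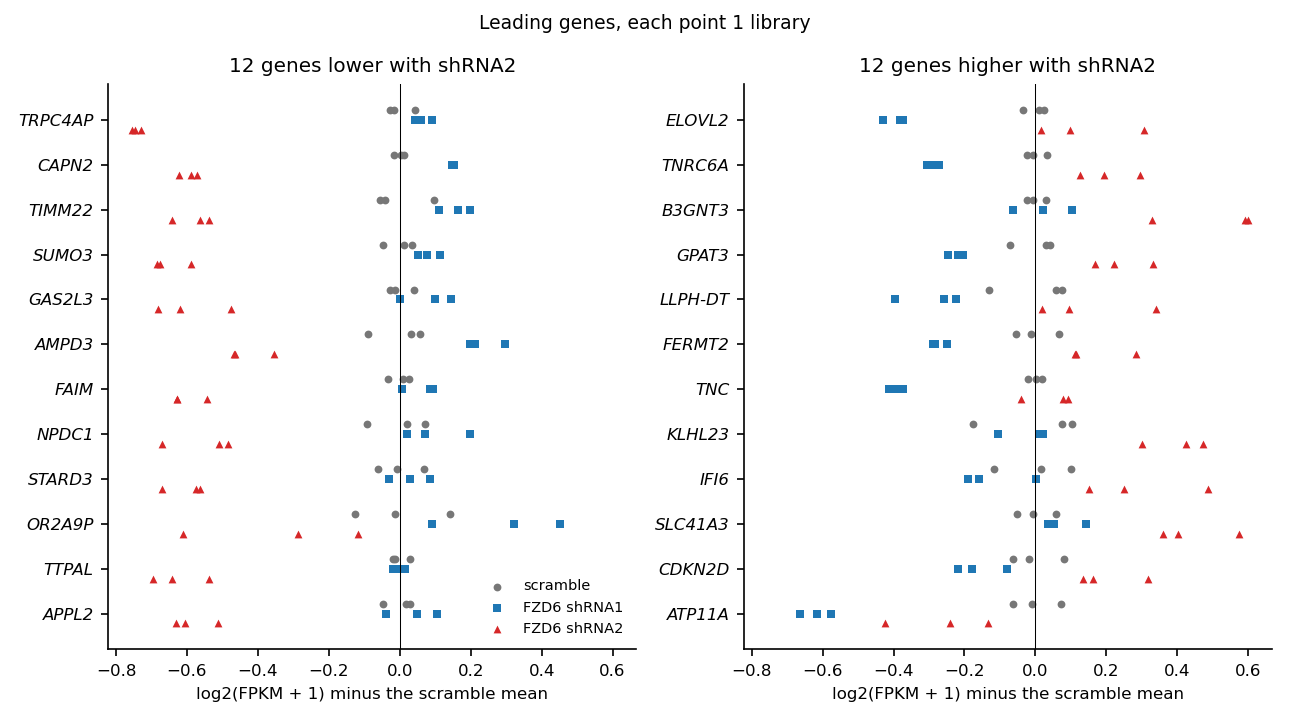
Log2(FPKM + 1) of each library minus the mean of the scramble libraries (horizontal) for the 12 leading genes in each direction, with scramble in grey, shRNA1 in blue and shRNA2 in red. The lower genes are set apart mainly by shRNA2, whereas for *ELOVL2*, *TNC* and *ATP11A* the shRNA1 libraries lie farthest from the scramble.

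Functional lists were described by how many tested members were called, against the 1.92% of all tested genes called higher and the 4.79% called lower, and no list was tested as a set. All lists and their members were chosen with earlier results of these data known, so a rank among the lists only describes these data. Members of the YAP and TEAD list stood lower with shRNA2 in the largest share of any list with at least 20 tested members. YAP and TEAD factors form the transcriptional arm of the Hippo pathway, which responds to cell contact and tension. Of 26 tested members, 8 were lower and 0 higher, and the median log2 difference was −0.07 against 0.0001 over all tested genes. TGFB2, a transforming growth factor, was at 10.98, 11.1 and 10.7 FPKM with shRNA1 and 7.51, 8.46 and 7.49 FPKM with shRNA2 (−0.44, adjusted p = 0.00191), below a scramble mean of 11.6. ANKRD1, a cardiac ankyrin repeat protein and common readout of YAP, was at 43.4, 43.3 and 40.7 FPKM with shRNA1 and 31.5, 34.3 and 33.0 FPKM with shRNA2 (−0.36). Here shRNA1 was the hairpin away from the scramble libraries, at 31.7 to 33.0 FPKM. AJUBA, a LIM protein that inhibits the kinase LATS, differed by −0.36, and YAP1 itself was at 20.8, 20.6 and 21.1 FPKM with shRNA1 and 16.8, 18.2 and 16.4 FPKM with shRNA2 (−0.27, adjusted p = 0.0115). The other called members, named although they fall outside the naming rule, were *F3*, *CCN2*, *CCN1* and *AMOTL2*, with differences from −0.24 to −0.11. With the scramble, shRNA1 and shRNA2 in turn, *F3* averaged 6.91, 7.84 and 6.48 FPKM and *CCN1* 89.4, 100.2 and 91.7 FPKM. In both genes the shRNA1 mean lay farther from the scramble mean. *CCN2* averaged 13.3, 14.2 and 12.4 FPKM, with the scramble about midway. For *AMOTL2*, at 49.3, 50.8 and 46.9 FPKM, and for *AJUBA* and *YAP1*, the shRNA2 mean lay farther. When single libraries were left out, 3 to 7 members were called lower and 0 or 1 higher.

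**Figure D3:**
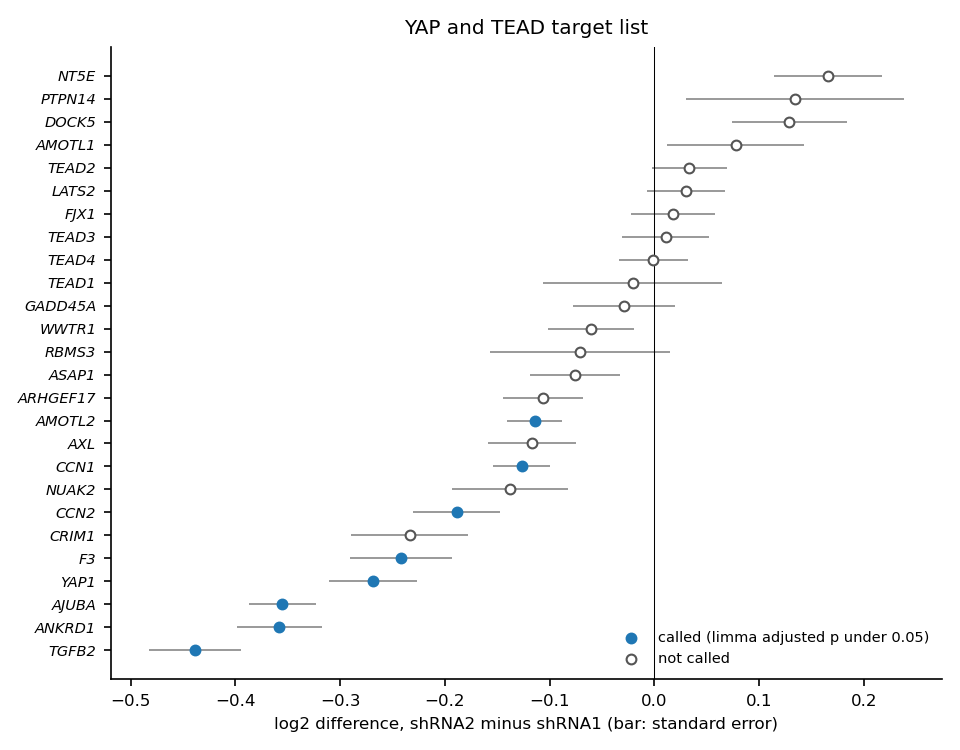
Log2 difference between the hairpins (horizontal, shRNA2 minus shRNA1) with its standard error for the 26 tested members of the YAP and TEAD list, filled where called. The 8 called members lie between −0.44 and −0.11.

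Genes of the actin cytoskeleton and of cell adhesion were called in both directions. The actin list was drawn up after the values had been seen, so its counts only describe what was found. Of 56 tested actin regulators, 9 were lower and 5 higher with shRNA2. Leaving out single libraries left 8 to 11 lower and 0 to 4 higher. CFL2, the muscle-type cofilin that severs filaments, was at 143, 146 and 145 FPKM with shRNA1 and 91.4, 101 and 95.2 FPKM with shRNA2 (−0.59). PFN2, a profilin that feeds actin monomers to growing filaments, was at 168, 171 and 169 FPKM with shRNA1 and 109, 118 and 116 FPKM with shRNA2 (−0.56). RDX, or radixin, which ties filaments to the membrane, was at 40.0, 39.9 and 39.4 FPKM with shRNA1 and 25.4, 30.0 and 25.3 FPKM with shRNA2 (−0.55). In these 3 genes the scramble libraries lay well above shRNA2, at 128 to 135, 154 to 163 and 39.2 to 42.2 FPKM in turn. MYLK, the kinase of the myosin light chain, was at 7.55, 7.69 and 7.01 FPKM with the scramble, 6.07, 6.21 and 6.26 FPKM with shRNA1, and 3.64, 4.02 and 3.54 FPKM with shRNA2 (−0.60), a descent over the 3 groups without overlap. In the other direction LIMK1, the kinase that inactivates cofilin, was at 34.1, 33.7 and 34.3 FPKM with shRNA1 and 42.3, 38.4 and 40.9 FPKM with shRNA2 (0.25). FHOD1, a formin, was higher by 0.19 and GSN, the severing protein gelsolin, by 0.17.

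Of 28 tested integrins and focal adhesion linkers, 4 were lower (14.3%) and 1 higher (3.57%). The integrin subunit ITGB2 was at 13.1, 14.1 and 12.8 FPKM with shRNA1 and 10.3, 9.67 and 9.69 FPKM with shRNA2 (−0.40), and PARVA, a linker of integrins to actin, differed by −0.35. ITGB5 differed by −0.24 and ITGA3 by −0.14, and *FERMT2* was the member that was higher. The call of *ITGA3* held under only 5 of 20 other settings. Leaving out single libraries left 3 or 4 members lower and 1 higher. The caveola proteins, another list drawn up after the values were seen, had 3 of 8 tested members lower, and 1 to 3 when single libraries were left out. CAV1, the coat protein of caveolae, was at 229, 235 and 233 FPKM with shRNA1, 226 to 229 FPKM with the scramble, and 147, 161 and 154 FPKM with shRNA2 (−0.59, adjusted p = 0.000401). CAVIN2 differed by −0.25 and CAVIN1 by −0.12.

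In the membrane traffic lists few members were called, though some of these differed strongly. ARF4, a small GTPase of the Golgi, was at 160, 157 and 157 FPKM with shRNA1 and 104, 110 and 108 FPKM with shRNA2, a difference of −0.55 ± 0.03. SEC24D, a cargo adaptor of vesicles that leave the endoplasmic reticulum, was at 6.84, 6.73 and 6.61 FPKM with shRNA1 and 4.75, 4.87 and 4.69 FPKM with shRNA2 (−0.42). With *SEC61A1* they made 3 of 50 tested genes of the coat and ER-Golgi list, all lower. That share of 6.0% was near the 4.79% of all tested genes. Of 51 tested Rab GTPases, 4 were lower (7.84%) and 1, *RAB1A*, was higher (1.96%), against 4.79% and 1.92% of all tested genes. RAB29, a GTPase tied to the kinase LRRK2, was at 11.3, 11.4 and 11.9 FPKM with shRNA1 and 7.91, 7.98 and 7.16 FPKM with shRNA2 (−0.53). RAB7A, which governs late endosomes, was at 103, 103 and 99.7 FPKM with shRNA1 and 74.3, 75.1 and 78.1 FPKM with shRNA2 (−0.42). The proton pump of lysosomes, the V-ATPase, had 2 of 18 tested genes lower (11.1%) and 0 higher. ATP6V1D was at 64.7, 61.9 and 64.5 FPKM with shRNA1, 53.4 to 56.5 FPKM with the scramble and 39.8, 43.6 and 41.3 FPKM with shRNA2 (−0.60), and ATP6V1A differed by −0.40. Exactly 2 pump genes were called lower in every setting tried.

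Of 83 tested retromer, sorting nexin and ESCRT genes, 5 were lower and 0 higher, a share of 6.02% that is near the 4.79% of all genes. Signal peptide processing and the translocon, a list made after seeing the values, had 5 of 25 tested genes lower and 1 higher. SPCS2, a subunit of the signal peptidase, was at 37.1, 38.8 and 37.7 FPKM with shRNA1 and 25.9, 29.3 and 29.4 FPKM with shRNA2 (−0.41), while its partner SEC11A was higher by 0.19. SRP14, part of the signal recognition particle, differed by −0.34. In mitochondria, 4 of 23 tested genes of iron-sulfur cluster assembly, likewise listed afterwards, were lower. They included the scaffold ISCU, at 22.8, 22.7 and 23.4 FPKM with shRNA1 and 15.8, 15.8 and 16.7 FPKM with shRNA2 (−0.49). Of 78 tested respiratory chain genes, 2 were lower and 2 higher (2.56% each way). Of 78 mitochondrial ribosomal proteins 5 were lower (6.41%) and 1 higher (1.28%).

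**Figure D4:**
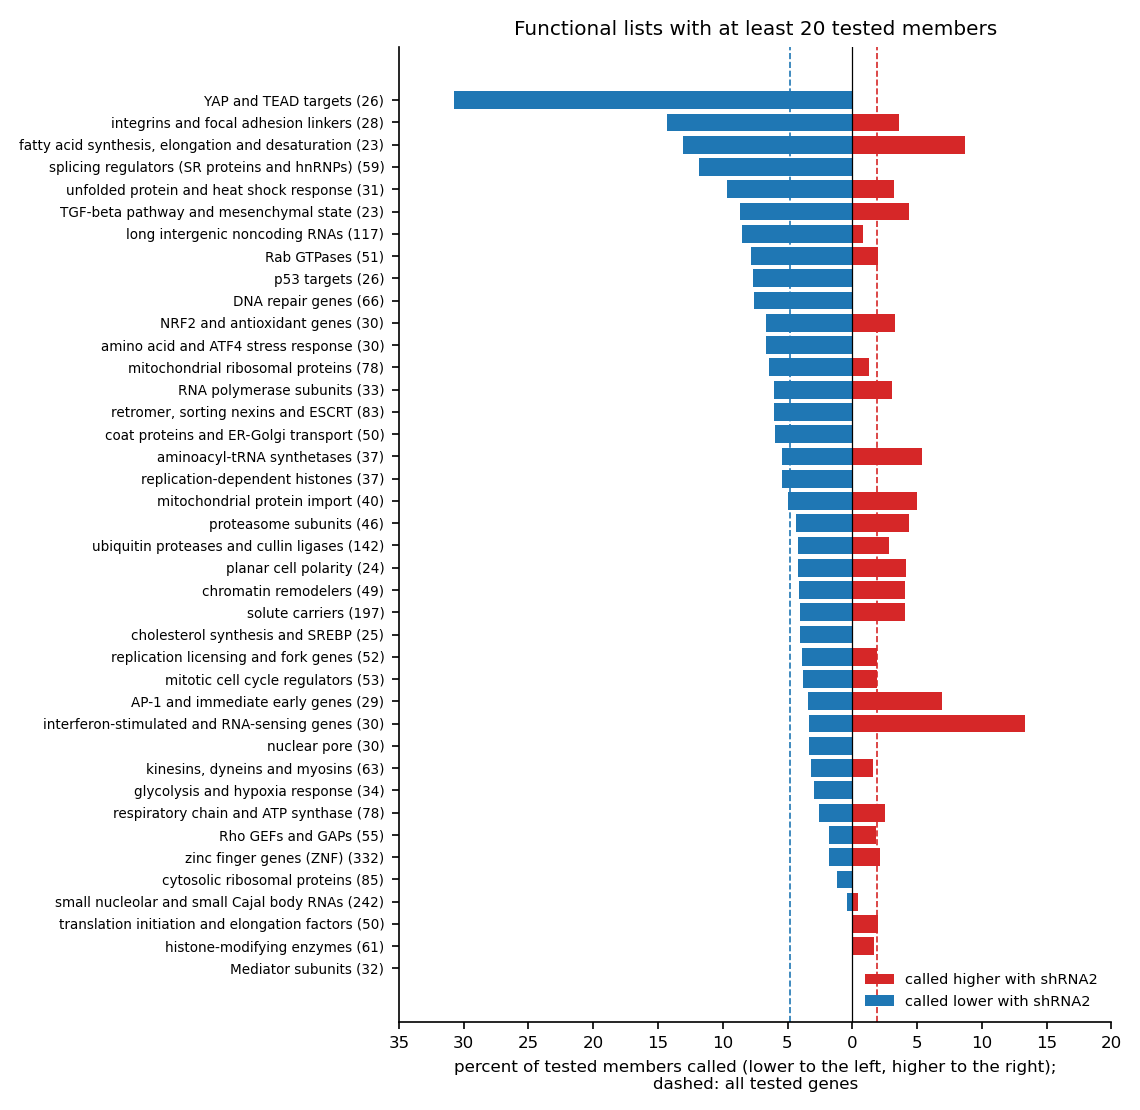
Percent of the tested members called lower (left, blue) or higher (right, red) with shRNA2 in each functional list with at least 20 tested members. The lists drawn up after the values were seen are left out, and those shown were chosen with earlier results of these data known. The number tested is in brackets, and dashed lines mark the shares over all tested genes. The YAP and TEAD list has 30.8% called lower, and the interferon list 13.3% called higher.

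Of 59 tested splicing regulators, 7 were lower and 0 higher, or 11.9% lower against 4.79% over all genes. PTBP3, a paralog of the polypyrimidine tract binding protein, was at 38.7, 38.8 and 39.3 FPKM with shRNA1 and 31.1, 34.9 and 30.0 FPKM with shRNA2 (−0.28). SF3B3, a subunit of the U2 particle, was at 53.3, 52.6 and 52.8 FPKM with shRNA1 and 47.1, 46.8 and 44.4 FPKM with shRNA2 (−0.20). QKI differed by −0.22 and SRSF4 by −0.20. This count was unsteady, at 1 to 6 when single libraries were left out. Both called subunits of RNase P, POP4 (−0.46) and RPP30 (−0.39), of 11 tested in a list made afterwards, were lower.

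Among long noncoding RNAs, 10 of 117 tested were lower (8.55%) and 1 was higher (0.855%). *SNHG1*, a transcript whose introns carry small nucleolar RNAs, was at 87.5, 85.2 and 83.7 FPKM with the scramble, 128, 132 and 129 FPKM with shRNA1 and 82.4, 89.0 and 94.7 FPKM with shRNA2 (−0.54, adjusted p = 0.00126). *GAS5*, another such host named after its values were seen, was at 263 to 287 FPKM with the scramble, 379, 385 and 388 FPKM with shRNA1 and 311, 311 and 325 FPKM with shRNA2 (−0.28). *SNHG12* and *SNHG17* differed by −0.47 and −0.31, so that in these hosts the shRNA1 libraries averaged more than both other groups. Host transcripts as a class, listed after the values were seen, had 5 of 27 tested lower and 0 higher. *NEAT1*, the scaffold of paraspeckles, was higher, at 4.58, 4.74 and 4.91 FPKM with shRNA1 and 6.59, 6.47 and 5.85 FPKM with shRNA2 (0.34), the latter near the scramble at 5.92 to 6.21 FPKM.

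Interferon-stimulated and RNA-sensing genes showed the largest share higher with shRNA2 of any list with at least 20 tested members, at 4 of 30 against 1 lower. These genes answer viral infection and double-stranded RNA. Besides *IFI6*, they were *IFIT3* (0.25), *IFIT1* (0.22) and *IRF9* (0.17), the last a subunit of the factor that turns such genes on. IFIT3 was at 2.94, 2.80 and 2.71 FPKM with shRNA1 and 3.58, 3.48 and 3.57 FPKM with shRNA2, with the scramble at 2.58 to 3.19 FPKM. The 4 adjusted p-values lay between 0.042 and 0.050, and the number called higher ranged from 0 to 4 when single libraries were left out. TRIM25, the ubiquitin ligase that activates the RNA sensor RIG-I, moved the other way and more clearly, at 24.2, 25.3 and 25.3 FPKM with shRNA1 and 17.6, 18.3 and 17.0 FPKM with shRNA2 (−0.48, adjusted p = 0.000584). Of 16 tested genes of antigen processing, a list made afterwards, 3 were higher and 0 lower, and 0 to 3 were higher when single libraries were left out. They were the immunoproteasome subunits PSMB9 and PSMB8, which differed by 0.32 and 0.28, and the peptide transporter TAP1, which differed by 0.17. The proteasome list had 2 of 46 tested members higher, *PSMB9* and *PSMB8*, and 2 lower (4.35% each way). The shares over all tested genes were 1.92% higher and 4.79% lower. The lower proteasome members, *PSMC2* and *PSMA4*, each differed by −0.21, and *PSMA4* lost its call under 13 of 20 other settings. Of 18 tested RNA interference genes, *TNRC6A* and *HSPA8* were higher and *AGO4*, an Argonaute, was lower (−0.30), from 1.46, 1.53 and 1.32 FPKM with shRNA1 to 1.00, 0.994 and 0.944 FPKM with shRNA2.

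The lists of DNA repair, replication, mitotic and chromatin remodeling genes had 3.77% to 7.58% of tested members lower and 0% to 4.08% higher. Over all tested genes the shares were 4.79% and 1.92%. Of 66 tested DNA repair genes, 5 were lower and 0 higher. UNG, which removes uracil from DNA, was at 82.5, 84.9 and 84.3 FPKM with shRNA1 and 64.0, 67.1 and 68.6 FPKM with shRNA2, on opposite sides of the scramble at 74.0 to 74.8 FPKM (−0.33). RAD51B (−0.32) and FANCD2 (−0.31), of recombination and crosslink repair, were also lower. MCM3, a subunit of the replicative helicase, was at 78.5, 78.1 and 80.2 FPKM with shRNA1 and 63.8, 64.4 and 63.6 FPKM with shRNA2 (−0.30), 1 of 2 lower among 52 tested replication genes. Of 53 tested mitotic cell cycle regulators 2 were lower, *CDKN1B* (−0.32) and *MAD2L1* (−0.30), and *CCND1* was higher (0.13). Among chromatin remodelers the BAF subunits *SMARCD1* (−0.40) and *SS18* (−0.37) were lower and *SMARCA2* (0.18) and *INO80* (0.16) were higher, of 49 tested.

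Among 19 tested Wnt receptors and canonical targets, 10.5% were lower and 5.26% higher, against 4.79% and 1.92% of all tested genes. The lower ones were *FZD6*, the target of both hairpins, and *DKK1* (−0.19), a secreted Wnt inhibitor, and *CCND1* was higher. Of 24 tested planar cell polarity genes, *CELSR1*, a polarity cadherin, was lower (−0.32) and *PRICKLE3* was higher (0.23), or 4.17% each way. *CTNNB1*, which encodes β-catenin, differed by −0.12, at 73.0 FPKM on average with shRNA1 and 67.2 FPKM with shRNA2. Its call, like that of *CCND1*, held under only 8 of 20 other settings. In lipid metabolism, FASN, the fatty acid synthase, was at 91.0, 90.6 and 87.4 FPKM with the scramble, 58.2, 58.4 and 57.0 FPKM with shRNA1 and 52.6, 50.6 and 49.4 FPKM with shRNA2. The difference between the hairpins, −0.18, was small beside their common distance from the scramble.

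Over all genes the seed words were found as follows. The shRNA2 word stood in the 3′ UTR of 118 of 558 genes lower with shRNA2 that have an annotated one (21.1%), of 38 of 231 higher genes (16.5%) and of 1790 of all 10870 tested (16.5%). The shRNA1 word stood in 47 of the 231 higher genes (20.3%), 79 of the 558 lower genes (14.2%) and 1300 of all (11.96%). Longer UTRs hold more words, and the median UTR was 1301 bases in the higher and 1374 bases in the lower genes against 947 bases over all. Over all tested genes, those with the shRNA1 word had a median difference of 0.0137 and those without it of −0.0002, and those with the shRNA2 word had a median of 0.01 and those without it of −0.0003. The part of the seed matches in the differences was not tested. Whole transcripts of called genes were also longer, with a median of 3341 bases for the higher and 2961 bases for the lower genes against 2625 bases over all, while the rank correlation of the difference with transcript length was 0.05 and with GC content −0.09 over 12295 genes, which are not independent.

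At the level of single RefSeq transcripts, 97 of 19658 tested differed (0.493%), 14 higher (0.0712%) and 83 lower (0.422%) with shRNA2. They belonged to 95 genes, 81 of which were also called as genes, and 45 were the only transcript listed for their gene. This count was fragile, with 2 calls when only the 6 hairpin libraries were fitted or when shRNA2 replicate 3 was left out. *CAPN2*, *TIMM22*, *SUMO3*, *FAIM* and *ELOVL2* were called through their main transcript, as they were at the gene level. FAIM transcript NM_001033032 was at 13.2, 13.9 and 11.6 FPKM with shRNA1 and 7.27, 8.11 and 6.12 FPKM with shRNA2 (−0.77).

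Among called transcripts the largest differences in either direction were in *HYLS1*, which encodes a protein of centrioles and cilia. Transcript NM_001377269 was at 8.92, 8.80 and 11.6 FPKM with shRNA1, 4.07 to 8.45 FPKM with the scramble, and 0.043, 0.059 and 0.046 FPKM with shRNA2 (−3.35 ± 0.23, adjusted p = 0.00729). Transcript NM_001377270 showed the reverse, at 1.10, 0.037 and 0.073 FPKM with shRNA1, 0.026 to 1.44 FPKM with the scramble, and 10.9, 7.08 and 9.54 FPKM with shRNA2 (2.92 ± 0.39, adjusted p = 0.0404). The former made 46.2% ± 6.51 of the summed *HYLS1* level with shRNA1 and 0.311% ± 0.045 with shRNA2, and the latter 1.92% ± 2.88 and 58.2% ± 13.7 (SD, n = 3). The gene as a whole differed by −0.39, from 21.1 to 15.8 FPKM. Cufflinks divides shared reads between overlapping transcripts by a model, and the deposited bounds around each value do not overlap between the hairpins for either transcript.

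**Figure D5:**
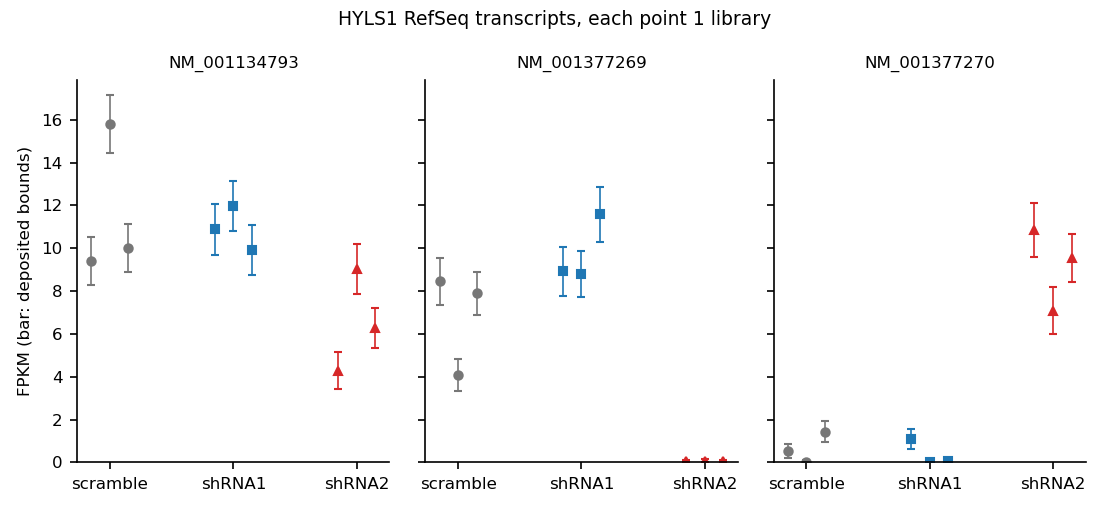
FPKM (vertical) of 3 *HYLS1* RefSeq transcripts in each library, in grey for the scramble, blue for shRNA1 and red for shRNA2, with the deposited lower and upper bounds. NM_001377269 is near 0 with shRNA2, where NM_001377270 stands between 7.08 and 10.9 FPKM.

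In 14 genes a transcript was called and the gene was not. CLCC1, a chloride channel of the endoplasmic reticulum, had transcript NM_001377458 at 1.71, 1.98 and 2.28 FPKM with shRNA1 and at or near 0 in all 3 shRNA2 libraries, while the gene total was 5.72 and 5.92 FPKM. PPARG, the nuclear receptor of adipocyte genes, had transcript NM_138711 at 0.534, 0.007 and 0.001 FPKM with shRNA1 and 3.25, 2.57 and 1.98 FPKM with shRNA2 (1.62), with the gene total at 18.3 and 18.6 FPKM. SUGCT, a mitochondrial CoA transferase, and TATDN3, a nuclease relative, each had 1 transcript higher, by 1.21 and 0.95, without a call for the gene. RGMB, a co-receptor of bone morphogenetic proteins, had a transcript higher by 1.05 and was also higher as a gene, by 0.28. When the share of each transcript within its gene was tested, 0 of 11534 shares in 4239 genes were called by limma (0%), and 740 had an unadjusted p under 0.05. The lowest adjusted p was 0.0897, for *HYLS1* NM_001377269.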

How the data were processed

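RNA-seq of 9 DU145 libraries, 3 per group, was analyzed. The authors prepared stranded poly(A) libraries with a TruSeq kit, aligned the reads by STAR, and obtained FPKM from Cufflinks. The deposited tables give FPKM with lower and upper bounds for each RefSeq transcript. The submitters' processing notes name hg38, as do the loci, whereas the methods name mm10. Tool versions are not given in the sources used here.

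FPKM were summed over the RefSeq entries of a gene, with 72645 of 73240 accessions matched through a RefSeq gene table, and 42 genes with an entry not marked usable were left out. Genes or transcripts with a mean of at least 1 FPKM were tested on log2(FPKM + 1), which understates changes of low genes, by limma 3.58.1 in R 4.3.3 over all 9 libraries, with the contrast shRNA2 minus shRNA1, two-sided, and Benjamini-Hochberg adjustment with a threshold of 0.05. Shares were tested for transcripts of genes with at least 2 tested transcripts and a mean of at least 5 FPKM. Because no counts were used, no count model was fitted, and depth was estimated from the bounds of single-transcript genes.

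Named genes are *FZD6*, the 12 largest called differences in each direction without overlap between libraries and with an entry of at least 200 bases, at most 3 shorter entries and at most 4 called members of each of 55 lists in each direction, and 6 transcripts in each direction. The same rule was applied to 7 lists drawn up after the values were seen, on actin, caveolae, antigen processing, snoRNA hosts, the translocon, iron-sulfur clusters and RNase P. Members and lists were chosen with earlier results of these data known. Hairpin sequences 1 and 2 of the study's oligonucleotide list were taken as shRNA1 and shRNA2.

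In simulated data the gene comparison recovered 42.5% of 200 planted genes at a log2 change of 0.25, 90.5% at 0.5 and 94.5% at 1. False calls numbered 0, 5 and 6 in turn, and there were 0 calls when nothing was planted. The simulated libraries varied independently, so deviations shared by the libraries of a group were not examined. Alternatives changed the pseudocount, the filter, the scaling, the libraries in the fit and the variance model. Python 3.11.15, pandas 2.3.3, numpy 2.4.6, scipy 1.17.1 and matplotlib 3.10.9 were used.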

Additional observations from a re-analysis of the deposited data

How the results depend on the processing

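Each of the 190 named genes kept its direction under every alternative in which it was tested, 18 to 20 of them a gene, and 67 were called in all of these, 16 of the 24 leading genes among them. The number of genes called was 839 and moved by over 1.5 times to 337 with the 6 hairpin libraries alone and to 268 with the study's own criteria (unadjusted p under 0.01 and 1.2-fold). It ranged from 333 to 1172 when single libraries were left out, past 1.5 times for each shRNA1 replicate and for shRNA2 replicate 1, and was 802 to 1184 under the other alternatives. Of the 337 genes, 328 were among the 839, and of the 1172, 721 were.

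Transcript calls, 97 at first, came to 232 with no filter, 233 with a filter of 5 FPKM, 177 with a trended and robust variance, 2 with the 6 hairpin libraries and 2 to 81 without single libraries. Share calls, 0 at first, came to 1 with a pseudocount of 0.1, with a filter of 5 FPKM or with the 6 hairpin libraries, and to between 0 and 1 without single libraries. The *FZD6* difference of −0.25 kept its size but not its call with the 6 hairpin libraries (−0.25) and by the study's criteria (−0.25), and ranged from −0.30 to −0.22 without single libraries. The causes were not tested.

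Libraries of the hairpins with the same replicate number did not deviate together, with r of 0.111, 0.0411 and 0.00398, so the numbers were not taken as pairs. With the replicate block limma called 802 genes, 0 transcripts (2292 at an unadjusted p under 0.05) and 0 shares (746 at an unadjusted p under 0.05), and the *FZD6* difference was −0.25 with an adjusted p of 0.0319. The mapped reads behind the FPKM were not used here, so counting error could not be separated from the spread between libraries, and 3 libraries a group limit what can be called.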

Other observations

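Calls in several other groups were counted in the same way. Of 85 tested cytosolic ribosomal proteins, which build the translating ribosome, 1 was lower, *RPL7A* by −0.18, and 0 were higher, with a median difference of 0.03, although 0 to 8 were called higher when single libraries were left out. Of 61 tested histone-modifying enzymes only the H3K79 methyltransferase gene *DOT1L* was called, higher by 0.21. Of 332 tested zinc finger genes, 7 were higher and 6 lower. Of 197 tested solute carriers, 8 were higher (4.06%) and 8 lower (4.06%), against 1.92% and 4.79% of all tested genes. Of 32 tested Mediator subunits, 0 were called by limma, and 3 had an unadjusted p under 0.05.

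By chromosome, the share of tested genes called lower with shRNA2 ranged from 1.92% of 365 on X and 2.30% of 868 on chromosome 19 to 6.85% of 657 on chromosome 12, and the share called higher from 1.02% of 391 on chromosome 4 to 2.59% of 657 on chromosome 12.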
